A study of Mus musculus with 4 samples.

Results

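The genes described here are 8 surface proteins by which stem and progenitor cells of the prostate are recognised or sorted, namely Ly6a, Ly6d, Ly6e, Psca, Prom1, Cd44, Kit and Cd24a. They were taken by name from the 49671 genes of the deposited table by a rule that uses no level, and all 8 were found. RNA-seq libraries had been prepared from epithelial cells of the distal tips (the last 100 µm) of the ventral prostate of untreated male CD-1 mice at postnatal days 10 to 13 per the labels, or 10 to 12 per the study's methods. The cells were negative for CD45, CD31 and CD140a and high for EpCAM, and CD49f, the product of Itga6, separated multipotent basal cells (CD49f high) from basal-derived luminal cells (CD49f low). The study's methods also describe the mice as of mixed background. The 2 groups therefore share mouse stock, sex, age range and region and differ in the gate. Each holds 2 libraries, named by the labels as basal replicates 1 and 3 and as luminal replicates 3 and 2. Per the methods, lobes of 20 mice were used and fewer than 2000 cells of each type were collected from the tips. How mice and cells were divided among libraries is not given in the sources used here, so the spread between libraries may be technical, and p-values measure that spread only.

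Surface markers have served to enrich prostate cells that regenerate ducts or form organoids. Ly6a, also called Sca-1, Ly6d, Ly6e and Psca are small proteins of the Ly6/uPAR family, which share a cysteine-rich fold and are held in the outer membrane by a glycosylphosphatidylinositol (GPI) anchor. Cd24a is also GPI-anchored and heavily glycosylated. Prom1 (CD133) lies in membrane protrusions, Cd44 is the main receptor for the matrix sugar hyaluronan, and Kit (CD117) is the receptor tyrosine kinase for the ligand Kitl. In the adult mouse prostate Ly6a, Ly6d and Psca are known from luminal cells of the proximal ducts, whereas Cd44 is associated with basal cells.

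Values are given in the order basal replicate 1, basal replicate 3, luminal replicate 3 and luminal replicate 2, and are normalized read counts, which the authors scaled to the same total of aligned reads in each library. The spacing of the low values showed what 1 read was worth, which was 6.26 and 6.49 in the basal libraries, 19.4 in luminal replicate 3 and 31.2 in replicate 2, so the libraries held between 643268 and 3194291 reads on genes. A level of 3 reads, taken as the floor, is 18.8 and 19.5 in the basal libraries, 58.1 and 93.5 in the luminal libraries. The labelled cell types were checked on their keratins. Krt5, a basal keratin, was at 18481 and 15824 in basal and at 77 and 93 in luminal cells, and Krt8, a luminal keratin, was at 3012 and 4287 against 13302 and 8320. Itga6, the gene of the sorting antigen, was at 20222 and 16382 against 4337 and 3584, and Epcam at 2355 and 3683 against 9081 and 6170. Pdgfra, the gene of CD140a, goes against the stated gate, at 3307 and 4144 in basal and 2575 and 8383 in luminal cells. Pecam1, the gene of CD31, was at 833, 637, 174 and 499, and Ptprc, the gene of CD45, at 150, 6, 0 and 0. These 3 genes were named after their values were seen. The luminal libraries differed from each other in genes of other cells. The summed level of 10 stromal genes was 84062 in luminal replicate 3 and 231935 in luminal replicate 2, and that of 9 smooth muscle genes 11223 and 64381, against 109735 and 220679 (stroma) and 34476 and 57878 (smooth muscle) in the basal libraries.

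Reads of the Ly6 genes can be hard to place, because several of them are near copies. The opening 60 coding bases of Ly6a, from the GENCODE M21 transcripts of GRCm38, are shown with those of its 3 closest relatives to make the likeness visible. Capitals mark bases that differ from Ly6a at the same position.
Ly6a: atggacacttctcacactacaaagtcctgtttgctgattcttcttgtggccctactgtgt
Ly6c1: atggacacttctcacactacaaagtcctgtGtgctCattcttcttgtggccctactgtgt
Ly6c2: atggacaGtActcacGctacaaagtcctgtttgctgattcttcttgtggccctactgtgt
Ly6i: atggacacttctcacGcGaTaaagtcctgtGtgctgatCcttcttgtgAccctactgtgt
Over this stretch Ly6c1 differs from Ly6a at 2 positions, Ly6c2 at 3 and Ly6i at 6. The longest run of identical bases that the coding sequence of Ly6a shares is 45 with Ly6c1, 52 with Ly6c2 and 80 with Ly6i, but only 9 with Ly6e, 10 with Ly6d and 9 with Psca. The level of Ly6a is therefore uncertain to the extent that reads from these stretches were dropped or misassigned, whereas the other 3 Ly6 markers share no such run with it. Ly6e has copies of its own, as its coding sequence matches Ly6e-ps1, whose level was not analysed here, at 90.5% over 105 bases and Gm17811, at 0 in all 4 libraries, at 82.3% over 373 bases.

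A gene was kept for testing where all libraries of a group reached 10 and that group averaged at least 20, and of the 6 markers kept, Cd44 alone passed the 2-fold threshold on group averages, and it was higher in basal cells. Cd44 (ENSMUSG00000005087, chromosome 2, 102811141 to 102901665, minus strand, GRCm38) was at 12312 and 14252 in the basal libraries, at 4124 in luminal replicate 3 and at 2150 in luminal replicate 2. Both luminal libraries lay below both basal libraries. The averages were 13282 ± 1372 in basal and 3137 ± 1396 in luminal cells (SD, 2 libraries each), and basal cells were 4.23-fold higher. The fitted change was −2.15 on the log2 scale (SE 0.36, 95% interval −3.05 to −1.26, limma on log2 of the value plus 1). With limma the adjusted p was 0.0659, and on recovered reads it was 0.00654 with edgeR and 0.000391 with DESeq2. In bulk samples fewer cells that carry a transcript and less of it per cell cannot be told apart, here and in every result that follows.

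**Figure D1:**
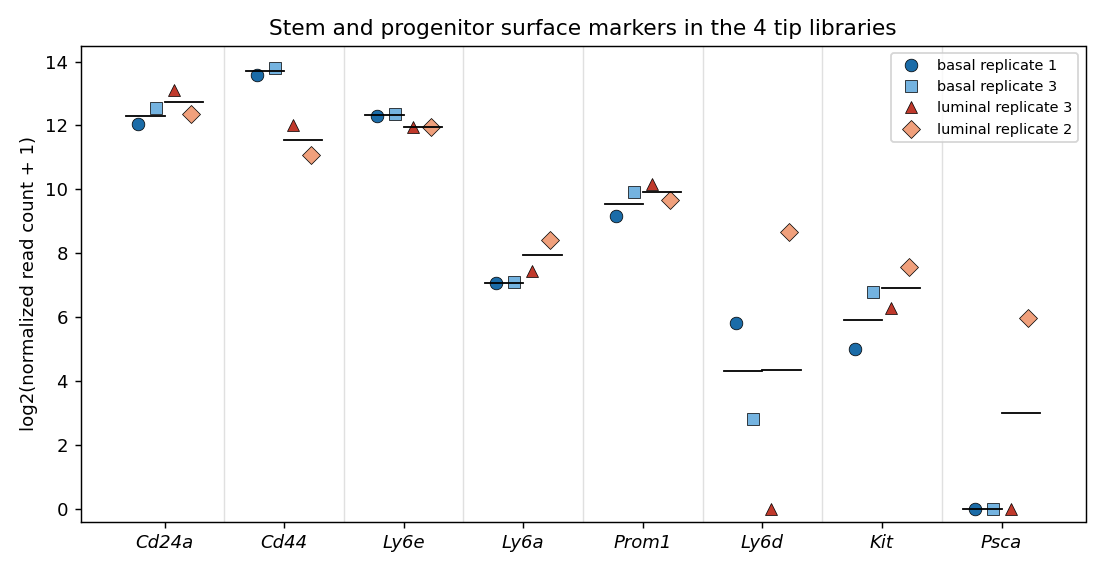
Log2 of the normalized read count plus 1 (vertical axis) for the 8 markers (horizontal axis) in the 2 basal libraries (blue) and the 2 luminal libraries (red); bars are the means of the 2 log2 values of a group. Cd44 falls from 12312 and 14252 in basal to 4124 and 2150 in luminal libraries, and Ly6d and Psca have luminal values of 0 in luminal replicate 3 and of 405 and 62 in luminal replicate 2.

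Of the 18737 genes kept by the filter on low values, 16.3% were at least 2-fold higher in basal cells and 18.3% at least 2-fold higher in luminal cells. Of the 6 markers kept, which each passed the filter in both groups, 1 was past the threshold towards basal and 0 towards luminal cells. limma called 0 of the 6 markers at an adjusted p under 0.05, against 0.694% of all genes. edgeR called 1 marker, against 5.06% of all genes, and DESeq2 1, against 4.37%, in both cases Cd44. Both luminal libraries were below both basal libraries for 2 markers, Cd44 and Ly6e, which holds for 27.3% of all genes, and above both for 1, Ly6a, which holds for 23.6%. The median log2 fold change over the 6 markers was 0.41 and that of all genes kept was −0.10. Over all 8 markers the median ran from 0.17 to 0.74 with a library left out. All 6 passed in both groups, and of the 14953 genes that did so, 1792 were past the threshold towards basal and 1852 towards luminal cells. With 6 markers, 1 past the threshold cannot be set apart from that share. When values were instead rescaled to nuclear protein-coding genes, 4551 genes were higher in luminal and 2147 in basal cells past the threshold, against 3431 and 3051 as deposited. Nuclear protein-coding genes held 76.0% and 74.7% of the values in the basal and 57.3% and 64.2% in the luminal libraries, and mitochondrial genes 2.96% and 4.41% against 8.64% and 6.32%. The part of these shares in the results was not tested beyond that rescaling.

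**Figure D2:**
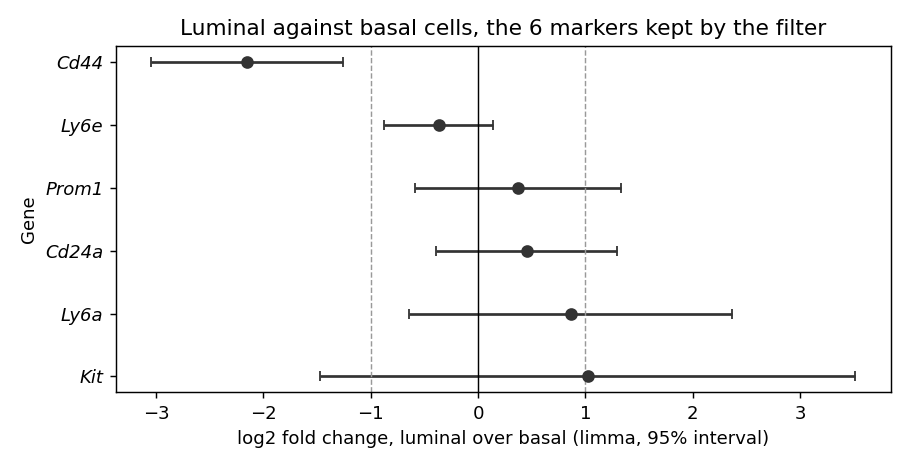
Log2 fold change of luminal over basal cells (horizontal axis, limma, with 95% intervals) for the 6 markers kept by the filter (vertical axis), from 2 libraries per group; dashed lines mark a 2-fold difference. The interval of Cd44 runs from −3.05 to −1.26, and those of the other 5 include 0.

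Ly6e, a Ly6 protein known as an uptake factor for some viruses and expressed widely, was the most abundant Ly6 gene. It was at 4998 and 5223 in the basal libraries and at 3931 and 3989 in the luminal libraries. The groups did not overlap and were each tight, with averages of 5111 ± 159 and 3960 ± 41.0 (SD, n = 2 each). The difference was small, at −0.37 on the log2 scale (SE 0.20, 95% interval −0.88 to 0.14), and limma's adjusted p was 0.398. Under quantile normalization the fitted difference was 0.00, so its direction rests on the scaling.

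Ly6a, the Sca-1 antigen, was measured at a low level in both cell types. Its normalized counts were 132 and 136 in the basal libraries, 174 in luminal replicate 3 and 343 in replicate 2. These correspond to 21 and 21 reads in the basal libraries and to 9 and 11 in the luminal libraries. Both luminal values exceeded both basal values, and the ratio of averages of 1.93 was just short of the 2-fold threshold. The exact 95% Poisson interval of luminal replicate 3, for counting error only, was 79.7 to 331 and held both basal values. The luminal spread was wide, with 134 ± 2.83 in basal and 259 ± 120 in luminal cells (SD, n = 2 each), and the fitted change of 0.86 (SE 0.60) had a 95% interval from −0.64 to 2.36 and a limma adjusted p of 0.486. It was 0.37 without luminal replicate 2 and 1.35 without luminal replicate 3. Endothelial cells also express Ly6a, and the summed level of 11 endothelial genes was 1899, 1779, 755 and 1932 in the same order of libraries, with 10, 9, 4 and 5 of the 11 over 3 reads. Their part in the level of Ly6a was not tested.

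Ly6d, a marker of castration-resistant luminal progenitors, was seen in 1 luminal library. It was at 56 and 6 in the basal libraries, at 0 in luminal replicate 3 and at 405 in luminal replicate 2, that is at 9, 1, 0 and 13 reads. The exact 95% Poisson interval, which covers counting error only, was 216 to 693 in luminal replicate 2, and 3 reads in luminal replicate 3 would have been 58.1. The 2 luminal libraries therefore differed by more than counting error, and the basal libraries lay between them. Ly6d failed the filter because luminal replicate 3 held no read and basal replicate 3 held 1, so no fold change is given.

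Psca, prostate stem cell antigen, was near the limit of detection. It was at 0 in both basal libraries and in luminal replicate 3 and at 62 in luminal replicate 2, which is 2 reads. Both groups were at or under the floor of 3 reads in every library, so neither a difference nor its absence was detectable at this depth. Ly6d and Psca were thus both read in luminal replicate 2 and not in luminal replicate 3. Luminal replicate 2 was also the library in which the summed stromal and smooth muscle genes were 2.76 and 5.74 times those of luminal replicate 3, and their part in these values was not tested.

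The 4 Ly6 markers lie within 283 kb of chromosome 15 in GRCm38, from Psca (74714839 to 74717069, plus strand) and Ly6d (74762056 to 74763620, minus strand) to Ly6e (74955051 to 74959905, plus strand) and Ly6a (74994877 to 74998031, minus strand). Their identifiers in the same order are ENSMUSG00000022598, ENSMUSG00000034634, ENSMUSG00000022587 and ENSMUSG00000075602. This interval is part of a cluster of 16 family genes over 885 kb. Of the 16 genes, Ly6e and Ly6a were the 2 with over 3 reads in every library, and 5 were at 0 in all 4. Ly6c1, the neighbour of Ly6a that is nearly identical to it over the sequence shown, was at 6 and 19 in the basal libraries, at 0 in luminal replicate 3 and at 280 in luminal replicate 2. As for Ly6d, the highest value was in luminal replicate 2 and luminal replicate 3 was at 0.

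Over the whole genome the Ly6/uPAR family list held 36 genes. None of the 4 libraries had a read for 12 of them, and another 12 passed the filter, 5 of them through 1 group only. Of the 7 that passed in both groups, 0 were past the 2-fold threshold in either direction. Of all 14953 genes that did so, 1852 were past it towards luminal and 1792 towards basal cells. The 3 family genes past it towards luminal cells had all passed through the luminal group alone, which fixes their direction, and limma and edgeR called 0 of the 12. Cd59a, an inhibitor of complement, was at 163 and 292 in the basal libraries, 19 in luminal replicate 3 and 218 in luminal replicate 2, and the groups overlapped (log2 fold change −1.73, SE 1.25, limma adjusted p = 0.50). Plaur, the urokinase receptor, was at 94 and 1078 in basal and 794 and 561 in luminal cells (1.06, SE 1.12, adjusted p = 0.629). Lypd6, a modulator of Wnt receptors, was at 50 and 325 against 97 and 125 (−0.21, SE 1.04, adjusted p = 0.930). In all 3 the replicates of a group differed at least as much as the groups, and the direction of Plaur turned without basal replicate 1 and that of Lypd6 without basal replicate 3. Cd59a was at −0.0014 without luminal replicate 3 and at −3.45 without luminal replicate 2.

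All Ly6 markers and Cd24a reach the surface through a GPI anchor, and the 30 genes that build and remodel it were all kept, 3 of them through 1 group only. Of the 27 that passed in both groups, 4 were at least 2-fold higher in luminal and 2 in basal cells. Of all 14953 genes that passed in both groups, 1852 and 1792 were. limma called 0 of the 30 and edgeR 1, against 0.694% and 5.06% of all genes kept. Pgap2, which remodels the lipid of the anchor, was at 570 and 708 in the basal libraries and at 4976 and 2368 in the luminal libraries. Its groups were apart (2.43, SE 0.41), with an adjusted p of 0.0673 by limma and 0.00310 by edgeR. Pgap1, which removes a fatty acid from the new anchor, was at 514 and 481 against 1626 and 935 (1.31, SE 0.36, limma adjusted p = 0.138). Pigc, a subunit of the first transferase of the pathway, was at 188 and 188 against 97 and 31 (−1.75, SE 0.84, limma adjusted p = 0.341), with −0.95 without luminal replicate 2 and −2.56 without luminal replicate 3.

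Cd24a, a mucin-like protein often used to grade epithelial cells, was the most abundant marker per length in luminal cells and close to Cd44 in basal cells. The gene, ENSMUSG00000047139, lies on chromosome 10 at 43578284 to 43584265 of GRCm38, on the plus strand. Its normalized counts were 4202 and 5924 in the basal libraries, 8810 in luminal replicate 3 and 5298 in replicate 2. The luminal library with the lower value fell between the basal libraries. The averages of 5063 ± 1218 and 7054 ± 2483 (SD, n = 2 each) gave a log2 fold change of 0.45 (SE 0.34, 95% interval −0.39 to 1.30), with a limma adjusted p of 0.509. It was 0.087 without luminal replicate 3 and 0.82 without luminal replicate 2. The coding sequence of Cd24a matches Gm6212 at 93.3% over 164 bases, whose level was not analysed here, and Gm15352 at 92.0% over 163 bases, which was at 6 in basal replicate 1 and at 0 in the other 3 libraries.

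Prom1 (ENSMUSG00000029086, chromosome 5, 43993620 to 44102032, minus strand) showed no difference beyond the spread between libraries. It was at 570 and 968 in the basal libraries and at 1142 and 810 in the luminal libraries, and the groups overlapped. The averages were 769 ± 281 and 976 ± 235 (SD, n = 2 each), and the log2 fold change of 0.37 (SE 0.38) had a 95% interval from −0.59 to 1.33, so a 2-fold difference towards luminal cells lies within it (limma adjusted p = 0.618). Without basal replicate 1 the fitted change was −0.01. The exons of Prom1 overlap those of the antisense gene Gm16401 by 424 bases, and Gm16401 was at 44, 19, 58 and 0 in the order above. Prom2, the paralog of Prom1, was at 1134 and 481 in basal and 1646 and 1496 in luminal cells, with both luminal values higher (1.09, SE 0.45, limma adjusted p = 0.282), and its change was 0.47 without basal replicate 3 and 1.70 without basal replicate 1.

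Kit (ENSMUSG00000005672, chromosome 5, 75574916 to 75656722, plus strand) was read fewer than 20 times in every library. It was at 31 and 110 in the basal libraries, at 77 in luminal replicate 3 and at 187 in luminal replicate 2, which is 5, 17, 4 and 6 reads. The groups overlapped, with averages of 70.5 ± 55.9 and 132 ± 77.8 (SD, n = 2 each), and the 95% interval of the log2 fold change of 1.02 (SE 0.99) ran from −1.47 to 3.52 (limma adjusted p = 0.601). It was 0.13 without basal replicate 1 and 1.92 without basal replicate 3. Mast cells also carry Kit, and 7 of 10 mast cell genes, among them the proteases Cpa3, Tpsab1, Mcpt4 and Cma1 and the receptor chains Ms4a2 and Fcer1a, were at 0 in all 4 libraries. The summed level of the mast cell list, 276, 422, 271 and 1028, came mostly from Gata2, a transcription factor of several cell types, at 157, 403, 213 and 1028. The rest came from Tpsb2 and Hdc. In basal replicate 1, 2 of the 10 genes were over 3 reads, and in each other library 1 was. The part of mast cells in the level of Kit was not tested. Within each cell type the library with more Kit was also the library with the higher stromal sum, whose part was not tested.

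Kitl, the ligand of Kit, was higher in basal cells. It was at 10502 and 6808 in the basal libraries, at 833 in luminal replicate 3 and at 436 in replicate 2. The lowest basal value was far above the highest luminal value, and the luminal average was 0.0733 times the basal average. The log2 fold change was −3.81 (SE 0.40), with an adjusted p of 0.0410 by limma and 0.000299 by edgeR. limma's adjusted p rose to between 0.114 and 0.237 when any single library was left out.

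Among 20 genes of the Kit ligand and its proximal signalling, 18 were kept, each through both groups. Of these, 1 was at least 2-fold higher in luminal and 3 in basal cells, against 1852 and 1792 of the 14953 genes that passed in both groups. limma called 1, which was Kitl, against 0.694% of all genes kept. edgeR called 2, both higher in basal cells, against 5.06%, and the median log2 fold change was −0.44. Gab2, an adaptor in the pathway, was at 182 and 286 in basal and 581 and 841 in luminal cells (1.61, SE 0.43, limma adjusted p = 0.128). Src, a kinase that acts next to the receptor, was at 1572 and 1020 against 465 and 436 (−1.49, SE 0.33, adjusted p = 0.0833 by limma and 0.0468 by edgeR). Of the 5 listed paralogs of Kit and Prom1, 4 were kept and limma called 0. Csf1r, a related receptor of macrophages whose coding sequence matches Kit at 77.9% over 226 bases, was at 395 and 84 in the basal libraries and at 19 and 93 in the luminal libraries. Its luminal values were at or under 3 reads, and it did not pass limma's test (adjusted p = 0.414). Pdgfrb, a receptor of stromal cells, was at 526 and 1299 against 426 and 997 (−0.34, SE 0.61, limma adjusted p = 0.780), and its direction turned without basal replicate 3 and without luminal replicate 3.

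**Figure D3:**
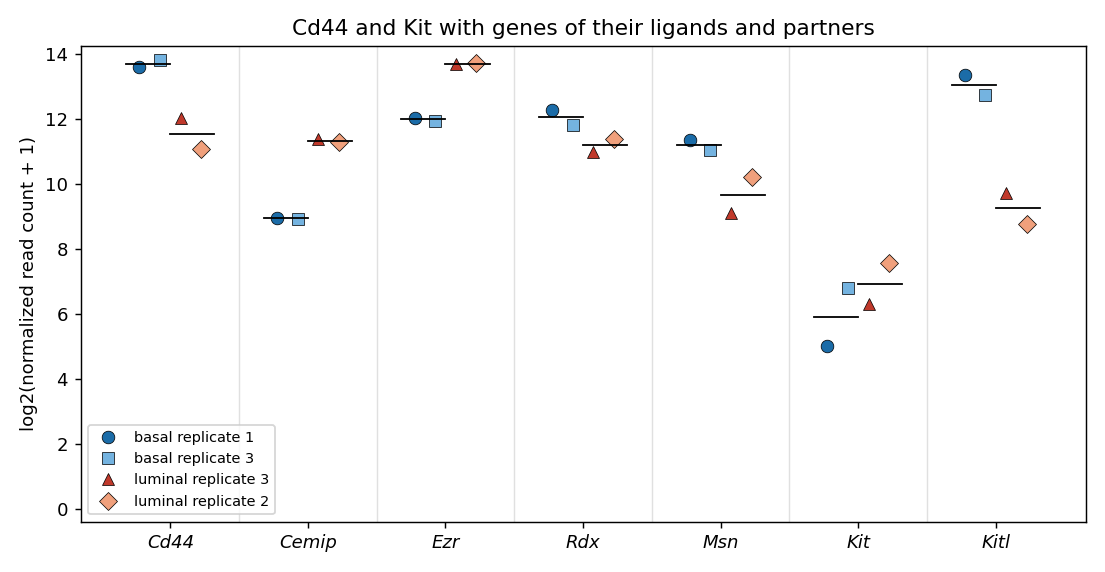
Log2 of the normalized read count plus 1 (vertical axis) for Cd44 and Kit and for genes of their ligands and partners (horizontal axis) in the 2 basal libraries (blue) and the 2 luminal libraries (red); bars are group means of the log2 values. Cemip and Ezr are higher in both luminal libraries, Kitl, Cd44, Msn and Rdx are lower in both, and the groups of Kit overlap.

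Of 18 genes for hyaluronan synthesis, breakdown and binding and for the partners of Cd44, 17 were kept, each through both groups. Of these, 5 were at least 2-fold higher in luminal and 4 in basal cells, and the median log2 fold change was −0.35. Among the 14953 genes that passed in both groups, 1852 and 1792 were past the threshold in those directions. limma called 2, both higher in luminal cells, and edgeR called 3, of which 1 was higher in basal cells. Among all genes kept these calls covered 0.694% and 5.06%. Cemip, which binds hyaluronan and is needed for its breakdown, was at 495 and 481 in the basal libraries and at 2633 and 2493 in the luminal libraries. The replicates were close and the groups far apart, with a log2 fold change of 2.39 (SE 0.25) and an adjusted p of 0.0410 by limma and 0.00117 by edgeR. Ezr, a linker of Cd44 to the actin cortex, was at 4177 and 3930 against 13128 and 13431 (1.71, SE 0.20, adjusted p = 0.0469 by limma and 0.00381 by edgeR). Has1, a hyaluronan synthase, was at 38 and 240 against 232 and 436, and its groups overlapped (1.72, SE 1.00, limma adjusted p = 0.417), with 0.40 without basal replicate 1 and 3.03 without basal replicate 3. limma's adjusted p for Cemip lay between 0.0645 and 0.0891, and for Ezr between 0.0819 and 0.221, when any single library was left out.

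Ezr belongs to a family of 3 linkers, and the other two, chosen for description after their values were seen, had values on the opposite side, neither called by limma. Msn was at 2574 and 2118 in the basal libraries and at 542 and 1184 in the luminal libraries (−1.54, adjusted p = 0.133 by limma and 0.0454 by edgeR). Rdx was at 4960 and 3560 against 2033 and 2649 (−0.86, adjusted p = 0.192 by limma and 0.147 by edgeR). Both luminal libraries were thus below both basal libraries for Cd44, Msn and Rdx and above both for Ezr.

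**Figure D4:**
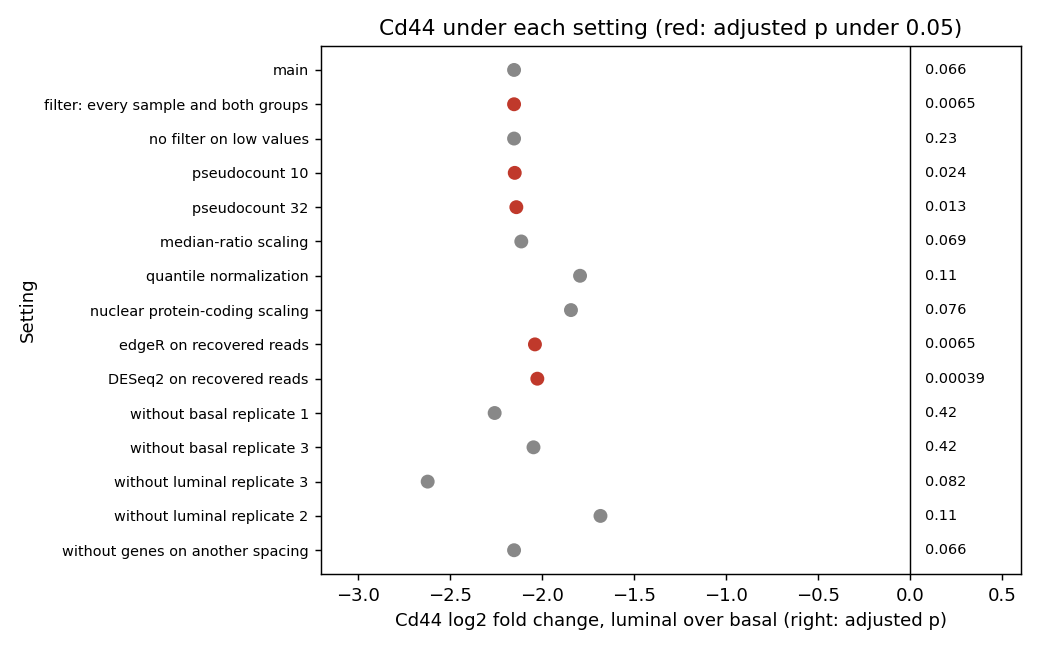
Log2 fold change of Cd44, luminal over basal (horizontal axis), as reported and under 14 alternatives (vertical axis), with the adjusted p of each at the right and red marking an adjusted p under 0.05. The fold change lies between −2.62 and −1.68 in the 14 alternatives, and the adjusted p is under 0.05 in 5 of them.

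Because counts scale with transcript length, levels of different markers were compared per kilobase of exon. In basal cells Cd24a (1962 normalized counts per kilobase) and Cd44 (1960) came first without a consistent order, since Cd44 was higher in basal replicate 1 (1817 against 1629) and Cd24a in basal replicate 3 (2296 against 2103), followed by Ly6e (1351), Ly6a (111), Prom1 (107), Ly6d (41.7), Kit (7.91) and Psca (0). In luminal cells the order was Cd24a (2734), Ly6e (1047), Cd44 (463), Ly6d (272), Ly6a (215), Prom1 (136), Psca (36.0) and Kit (14.8). Cd44 exchanged places with Ly6e between the cell types. The place of Ly6d in luminal cells rests on luminal replicate 2, since it was at 0 in luminal replicate 3, and that of Psca above Kit rests on 2 reads in the same library. Ly6a and Prom1 are neighbours whose levels per kilobase overlapped between libraries in basal and in luminal cells.

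Other markers of stem and progenitor states were followed across 21 genes, all of which were kept, 1 through a single group. Of the 20 that passed in both groups, 4 were at least 2-fold higher in luminal and 7 in basal cells. Among all 14953 genes that passed in both groups, the numbers were 1852 and 1792. limma called 0.694% and edgeR 5.06% of all genes kept. limma called 1 of the 21 and edgeR 7, of which 3 were higher in basal and 4 in luminal cells, among the latter Ppp1r1b, whose direction the filter fixed. The gene called by limma was Itga6, which also served in the sort (−2.21, SE 0.24, adjusted p = 0.0410), and limma's adjusted p lay between 0.111 and 0.183 when any single library was left out.

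The 3 genes of this list with the largest fold changes were Ppp1r1b, Wfdc2 and Krt4, and limma called 0 of them. Wfdc2 and Krt4 passed the filter in both groups and were higher in luminal cells. Ppp1r1b, a phosphatase inhibitor, was at 25 and 6 in the basal libraries and at 1026 and 499 in the luminal libraries. It passed the filter through luminal cells alone, which fixed its direction (log2 fold change 5.73, SE 0.95). Its adjusted p, 0.0665 by limma and 0.000853 by edgeR, therefore does not bear on that direction. Wfdc2, a secreted protease inhibitor, was at 13 and 58 against 600 and 343 (3.98, SE 0.94, adjusted p = 0.0898 by limma and 0.0155 by edgeR). Krt4, a keratin, was at 63 and 19 against 407 and 280 (3.24, SE 0.85, adjusted p = 0.119 by limma and 0.0404 by edgeR). In reads the basal values were 4 and 1 for Ppp1r1b, 2 and 9 for Wfdc2 and 10 and 3 for Krt4. Each therefore had a basal library at or under the floor of 3 reads, which limits the size of these changes. With single libraries left out the log2 fold change ran from 4.78 to 6.68 for Ppp1r1b, 2.95 to 5.02 for Wfdc2 and 2.40 to 4.08 for Krt4, the extremes of each without a basal library. Between the luminal libraries the 3 genes had the higher value in luminal replicate 3, whereas Ly6a, Ly6d and Psca were higher in luminal replicate 2.

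**Figure D5:**
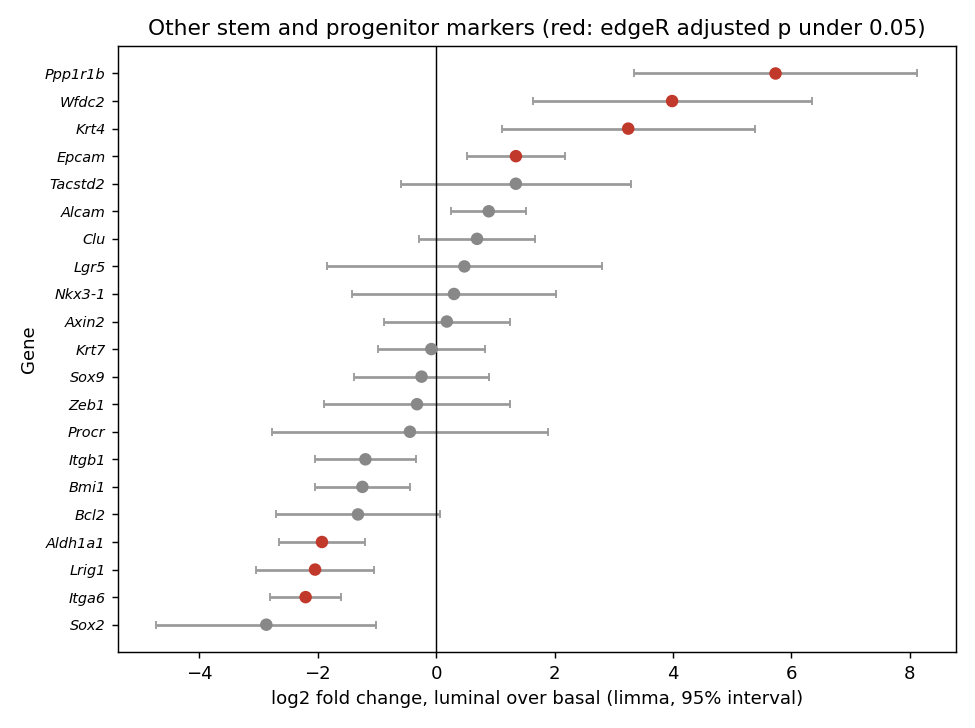
Log2 fold change of luminal over basal cells (horizontal axis, limma, with 95% intervals) for 21 other stem and progenitor markers (vertical axis), from 2 libraries per group; red marks an edgeR adjusted p under 0.05. Of the 7 red genes, 4 lie to the luminal side, with Ppp1r1b at 5.73, kept through luminal cells alone, and 3 to the basal side, led by Itga6 at −2.21.

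Across the 4 libraries, the genes nearest in pattern to Cd44 and to Kit, the kept markers averaging 100 or more with the lowest and the highest limma fold change, were sought among 12544 genes of that average. The measure was the Euclidean distance between centred log2 values, and since 4 libraries share their depths, it is a description only. Nearest to Cd44 were 4732487G21Rik (distance 0.0491), Mia (0.135) and Manea (0.159). Mia was at 376 and 383 in the basal libraries and at 116 and 62 in the luminal libraries. In luminal replicate 2 Mia and 4732487G21Rik (31) were under the floor of 93.5. By ratio of averages Ly6a (1.93) stood above Kit (1.87). Nearest to Kit were Susd2 (0.0315), Tmem26 (0.159) and Ccn3 (0.182). Kit itself held 5, 17, 4 and 6 reads, so counting error limits its pattern. Susd2 was at 144 and 487 against 349 and 841, so that, as for Kit, it was highest in luminal replicate 2 and lowest in basal replicate 1.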

How the data were processed

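The deposited signal per gene is a read count that the authors obtained with STAR on GRCm38 (mm10) and HTSeq, scaled to a common number of aligned reads and rounded. Picard is also named in the submitters' processing notes, with no role. Counting mode, strand and duplicate removal are not given in the sources used here. Samples were grouped by labelled cell type. The 8 markers and the gene lists were chosen with earlier results of these data known.

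From these values, 18737 of 49671 genes were kept, those at 10 or higher in all libraries of a group whose average was 20 or higher. A gene was past the fold threshold at a luminal over basal ratio of averages of 2 and above, or 0.5 and below, and limma 3.58.1 in R 4.3.3 was fitted to log2(value + 1) with a prior that follows the mean level; p-values were two-sided and adjusted by Benjamini-Hochberg. The added 1 shrinks the change of low genes, but a library at 0 can enlarge it. An exact permutation test of 2 against 2 libraries cannot go below p = 0.333 and was not used. Whole reads were recovered by dividing each value by that of 1 read, found from values up to 60 reads; 97.9% to 99.0% of low values were whole within 0.6 of a unit of normalized count, and 533 genes lay on another spacing, with 0 of the markers among them. On these reads edgeR 4.0.16 (quasi-likelihood) and DESeq2 1.42.0 were fitted. Matches between coding sequences were sought with blastn 2.17.0+. Symbols and coordinates came from GENCODE M21, which held 49412 of the identifiers. Scripts were tested on simulated data.

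Besides the markers, genes named were those of each list with a limma adjusted p under 0.05, the 3 of each list with the largest fold change at an average of 100 or more, and the lineage checks. Alternatives changed the filter, pseudocount, scaling, model and fold threshold and left out each library; leaving out genes on another spacing was chosen after seeing the data.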

Additional observations from a re-analysis of the deposited data

How the results depend on the processing

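No paired analysis was possible because the groups share 1 replicate number only, 3. Low reads limited Psca, Kit, Ly6d (9, 1, 0 and 13 reads) and Ly6a (21, 21, 9 and 11 reads). The Poisson interval and the floors cover counting error only, whereas limma's intervals rest on the spread between libraries. Past the fold threshold (6482 genes) there were 3644 genes under the stricter filter, 14341 without a filter and 2589 at 4-fold. limma's count (130 genes, 48 higher in luminal and 82 in basal cells) became 678 under the stricter filter, 531 and 668 with pseudocounts 10 and 32, 438 with quantile normalization (324 and 114), 0 without a filter (4455 at an unadjusted p under 0.05) and 312 to 991 with a library left out, and its split swung with the library: 298 higher in luminal and 14 in basal cells without luminal replicate 2, 830 and 161 without luminal replicate 3, 6 and 587 without basal replicate 1 (593 in all), and 80 and 751 without basal replicate 3 (831 in all). edgeR called 948 and DESeq2 819.

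Among the markers, 3 passed the fold threshold without a filter (Ly6d, Psca and Cd44) and 3 after scaling to nuclear protein-coding genes (Ly6a, Cd44 and Kit), a scaling that took the all-gene median log2 change from −0.10 to 0.21. With a library left out, 1 to 5 passed, the 5 without luminal replicate 3 (Ly6a, Ly6d, Psca, Cd44 and Kit) and 3 without basal replicate 3 (Ly6d, Cd44 and Kit). limma's count of 0 markers became 1, Cd44, under the stricter filter, either other pseudocount, edgeR and DESeq2, and 0 to 1 with a library left out, the 1 being Psca at 2 reads without luminal replicate 3. A lone library is assumed there to vary like the other group.

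Cd44 was lower in luminal cells in all 14 alternatives, with adjusted p from 0.000391 to 0.422. Kitl, Cemip, Ezr and Itga6 kept their direction but lost limma's call without a filter (each at 0.228) and without each library; Itga6 also lost it after scaling to nuclear protein-coding genes (0.0579). Directions turned for Ly6e under quantile normalization (0.0014), Prom1 without basal replicate 1 (−0.0093; up to 0.75 with another library left out), Lypd6 under nuclear protein-coding scaling (0.091) and without basal replicate 3 (1.12; down to −1.55 with another left out), Plaur without basal replicate 1 (−0.69; up to 2.81), and Pdgfrb without basal replicate 3 (0.31) and without luminal replicate 3 (0.27; down to −0.99). Where no construction above explains a change, the cause was not tested.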

Other observations

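In 533 genes, none of them a marker or a listed gene, low values lay off the spacing of their own column. In these genes 95.3% of the low values of the basal replicate 1 column were on the spacing of basal replicate 3 and 51.3% on its own. Of the low values of the luminal replicate 3 column, 87.5% were on the spacing of luminal replicate 2 and 11.8% on its own. In the basal replicate 3 column 7.39% were on its own spacing. In the luminal replicate 2 column 12.4% were on its own spacing and 69.9% on that of basal replicate 1. Without these genes Cd44 was at −2.15 with a limma adjusted p of 0.0657.

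Neuroendocrine genes were seen in luminal replicate 3. The summed level of 9 such genes was 44 and 38 in the basal libraries, against 832 in luminal replicate 3 and 93 in replicate 2, and 5 of the 9 were over 3 reads in luminal replicate 3 and 0 in the other 3 libraries.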
